A study of Mus musculus with 4 samples.

Results

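Small heat shock proteins and the cytosolic chaperone machinery were followed in dorsal root ganglion (DRG) neurons after nerve injury. The set holds 10 of the 31053 genes counted, chosen by symbol: the small heat shock proteins Hspb1, Hspb8, and Cryab, the Hsp70 genes Hspa1a, Hspa1b, and Hspa8, the Hsp90 gene Hsp90aa1, the J-protein Dnajb1, and the Hsp70 cofactors Bag2 and Bag3. All 10 were found and had counts in neurons. The data were single-cell RNA-sequencing (scRNA-seq) libraries, 4 in all: Male-Sham and Female-Sham after sham surgery, and Male-CCI and Female-CCI after nerve injury. Wherever a pair of values is given for a surgery, that of the male library stands first. All animals were C57BL/6 mice carrying PirtEGFPf, aged 7 to 8 weeks, in which the Pirt promoter drives a green fluorescent protein in most sensory neurons, so the sort for GFP+ cells enriched neurons. The injury was a chronic constriction (CCI) of both sciatic nerves, in which ligatures are tied loosely around the nerve, and it was compared with sham surgery at day 7. Each library pooled the L4-5 DRGs of 5 mice, 20 ganglia in all, and littermates of both sexes received the same surgery. Each surgery therefore had 2 replicates, 1 of each sex, so sex and pool cannot be told apart within a surgery, and litter cannot be told apart from surgery. The p-values measure at most the spread between these libraries, and in the fits named below only counting error.

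Molecular chaperones bind unfolded or partly folded proteins. Small heat shock proteins hold such clients in a soluble state without using ATP, whereas Hsp70, loaded by J-proteins and emptied by BAG-domain nucleotide exchange factors, folds them in ATP-driven cycles and passes some on to Hsp90. Heat shock factor 1 drives the stress-inducible genes of this network through heat shock elements, arrays of the unit nGAAn in alternating orientation. In sensory neurons Hspb1 (Hsp27) is best known, since it is raised after axotomy, favors neuronal survival, and is mutated in inherited axonal neuropathies.

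The matrices held 23691 called cells with 195684124 to 237069156 unique molecular identifiers (UMIs) per library. After filtering, 15712 cells remained, 15131 of them neurons and 559 like satellite glial cells (SGC-like), the glia that wrap the neuron's soma. The median depth of neurons was 32490 to 56462 UMIs per library. Levels are given as CPM, the UMIs of a gene per 1000000 UMIs, after adding up all cells of 1 class and library, so each is a share of the RNA counted in that class. Sprr1a, a gene induced by axon injury, split the neurons: those with a log-normalized value above 1 are Sprr1a+ and the others Sprr1a-. Atf3, an injury-induced transcription factor that the split did not use, stood at 1189 and 1249.5 CPM in the Sprr1a+ and 175 and 199.6 CPM in the Sprr1a- neurons of Male-CCI and Female-CCI. Sprr1a+ neurons were 1.28% and 2.67% of neurons after sham and 52.1% and 49.2% after CCI. Neuronal classes were rebuilt by clustering without the chaperone genes and were named from markers, as nonpeptidergic (NP1- to NP3-like) and peptidergic (PEP1- to PEP5-like) nociceptors, low-threshold mechanoreceptors (NF1-like, NF2-like, and the C-fiber cLTMR-like), an injury-induced class (CCI-ind-like), and clusters named by a leading gene (Calb1, Crh, Ly6a, Ankrd1). Differences from the study's own clusters may come from this rebuilding. The 5 neuron markers summed to 10430 to 13237 CPM in neurons and 515 to 920.2 CPM in SGC-like cells, whereas Schwann, immune, endothelial, and fibroblast markers stayed at or below 11.8 CPM per list over all neurons of a library. In Sprr1a+ neurons alone, immune markers reached 47.6 CPM in Male-Sham and endothelial markers 15.3 and 20.3 CPM in Male-CCI and Female-CCI. The libraries shared 215 to 513 cell barcodes pairwise before filtering and 0 to 6 among kept cells.

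Stretches before the start of Hspb1, Hspa1a, and Hspa1b are shown because the differences described here turn on these genes and because heat shock factor 1 acts through elements of this kind. RefSeq promoter windows (GRCm38.p6, from 250 bases before to 50 after the start) were on hand for 7 members, all but Cryab, Hspa8, and Hsp90aa1. Each window was searched on both strands for a pair of heat shock units facing each other, GAANNTTC, which reads the same on either strand. The 250 bases before the start of Hspb1 (chr5:135887669-135887918, plus strand), Hspa1a (chr17:34972157-34972406, minus strand), and Hspa1b (chr17:34959239-34959488, minus strand) read as follows, 5′ to 3′, with each GAANNTTC in capitals.
Hspb1: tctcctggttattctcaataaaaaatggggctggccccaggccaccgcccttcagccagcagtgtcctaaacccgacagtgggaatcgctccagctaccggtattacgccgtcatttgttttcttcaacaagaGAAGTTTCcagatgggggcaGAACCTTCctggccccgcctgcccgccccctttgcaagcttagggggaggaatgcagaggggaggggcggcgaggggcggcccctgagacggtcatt
Hspa1a: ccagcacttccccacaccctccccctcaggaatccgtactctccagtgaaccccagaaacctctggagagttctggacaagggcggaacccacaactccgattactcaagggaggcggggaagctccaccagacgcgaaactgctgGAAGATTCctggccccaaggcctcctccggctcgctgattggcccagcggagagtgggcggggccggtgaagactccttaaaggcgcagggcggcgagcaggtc
Hspa1b: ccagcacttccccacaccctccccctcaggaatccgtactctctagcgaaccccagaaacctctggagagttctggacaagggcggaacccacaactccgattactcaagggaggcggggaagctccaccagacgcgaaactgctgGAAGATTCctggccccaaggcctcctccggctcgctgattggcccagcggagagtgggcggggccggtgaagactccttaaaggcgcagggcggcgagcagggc
Hspb1 carried the pair at 2 places, GAAGTTTC from -117 to -110 and GAACCTTC from -97 to -90, counting back from -1 at the base before the start. Hspa1a and Hspa1b carried GAAGATTC from -104 to -97. Hspb8 and Bag3 held GAAGTTTC after the start, in bases 1 to 18 and 35 to 50 respectively, printed here because the match lies within them.
Hspb8: gaGAAGTTTCtaggctcg
Bag3: tgggaccaGAAGTTTC
No GAANNTTC was found in the windows of Dnajb1 and Bag2. Of 32851 promoter windows of the same length, 7.86% held GAANNTTC and 8.52% the outward-facing pair TTCNNGAA, which none of the 7 windows held. Arrays of 3 units (GAANNTTC followed by NNGAA, or TTCNNGAA followed by NNTTC) stood in 0.603% of windows and in none of these members.

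Hspa1a (chr17:34969190-34972156) and Hspa1b (chr17:34956436-34959238) lie side by side on chromosome 17 as genes of 1 exon each and encode nearly the same inducible Hsp70. Their upstream stretches were 98.8% identical over 250 bases and differed by C207T, T204C, and T2G, given with the base of Hspa1a first and the position counted back from 1 at the base before the start. Of the 90-base windows of the Hspa1a transcript 49.3% occurred exactly in Hspa1b, but 0 of the 411 windows in the last 500 bases did. Because the libraries were made from 3′ ends, reads from those last bases could be assigned to either gene, whereas reads from further upstream could not always be, so the split between the pair is uncertain. The other members, in GRCm38 coordinates of GENCODE, were Hspb1 (chr5:135887919-135889563, 3 exons), Hspb8 (chr5:116408491-116422864), Cryab (chr9:50751325-50756636), Hspa8 (chr9:40800984-40810087), Hsp90aa1 (chr12:110690605-110702728), Dnajb1 (chr8:83608193-83612653), Bag2 (chr1:33745484-33757795), and Bag3 (chr7:128523616-128546981).

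The chaperones had distinct patterns over the neuronal classes of sham DRGs. Over all cells of a class, Hspb1 had the widest range between classes. In neurons without a UMI of the glial gene Fabp7, Cryab had a wider range (219-fold, with a lowest class at 0.34 CPM) than Hspb1 (23.8-fold). It also did so when presumed doublets were kept (61.3-fold against 20.3-fold). Cryab and Bag3 were highest in a mechanoreceptor class and Bag2 in a nociceptor class. The heat-inducible Hspa1a, Hspa1b, and Dnajb1 shared 1 top class, and the abundant Hspa8 and Hsp90aa1 were nearly even. Of the 12 classes with at least 10 cells in both sham libraries, Hspb1, the ATP-independent holdase, was highest in the 33 and 92 CCI-ind-like cells of Male-Sham and Female-Sham (3118 ± 189 CPM, SD, n = 2 libraries). Next came cLTMR-like neurons with 1749 ± 65.9 CPM, followed by 1479.7 ± 145 in PEP2-like and 1320.3 ± 188 in PEP1-like neurons, the last pair overlapping between libraries. The lowest level was 119.8 ± 5.30 CPM in NP2-like neurons, the Mrgprd-expressing nociceptors, a 26.0-fold range over the classes. NP1-like neurons varied between the libraries, with 547 CPM in Male-Sham and 1021 in Female-Sham, whereas NP2-like neurons were close (116 and 124 CPM).

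Hspb8, the small heat shock protein that works with Bag3 in chaperone-assisted autophagy, ran from 345 ± 18.3 CPM in NP1-like to 142 ± 16.8 in the Calb1 cluster. It stood at 253 ± 2.29 CPM in the NP2-like neurons that held the least Hspb1. Cryab, the alphaB-crystallin chaperone of the cytoskeleton, was highest in NF2-like neurons (89.7 and 71.9 CPM in the male and the female sham library) and lowest in cLTMR-like neurons (3.72 and 13.3 CPM). The Calb1 cluster (55.0 ± 7.51), PEP5-like (48.1 ± 1.69), and NF1-like neurons (45.3 ± 20.3 CPM) came next, and the last of these overlapped both of its neighbors in the order.

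Hspa1a was highest in PEP3/4-like neurons, at 179 and 209.7 CPM in Male-Sham and Female-Sham, and lowest in NP3-like neurons at 29.3 and 30.6 CPM. Hspa1b, its near-identical neighbor, was also highest in PEP3/4-like (196 ± 28.4 CPM) and was lowest in NF1-like neurons (29.8 ± 5.67 CPM). Dnajb1, the inducible J-protein that loads clients onto Hsp70, took the same top class (304 ± 32.7 CPM) followed by PEP2-like (234 ± 8.97 CPM), and its lowest class was CCI-ind-like (47.1 ± 2.33 CPM). In all 3 genes PEP3/4-like neurons stood above every other class in both sham libraries, without overlap with the next.

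Hspa8, the constitutive Hsc70, spanned 1.58-fold from 1790.0 ± 36.2 CPM in NF2-like to 2823 ± 227 in CCI-ind-like neurons, and the top pair of classes overlapped. Hsp90aa1, the inducible cytosolic Hsp90, spanned 1.62-fold, and from the second class to the last each neighbor in the order overlapped. Bag2, an Hsp70 exchange factor that restrains the ubiquitin ligase CHIP, was highest in NP2-like (108 ± 3.75 CPM) and NP3-like neurons (78.4 ± 5.01 CPM) and lowest in NF2-like (12.3 ± 1.08 CPM) and NF1-like neurons (7.87 ± 0.566 CPM). Bag3 was highest in the classes lowest in Bag2, with 242 ± 4.50 CPM in NF2-like and 235 ± 5.67 CPM in NF1-like neurons. Its lowest class was PEP5-like (57.4 ± 2.38 CPM), not NP2-like (119 CPM) or NP3-like neurons (166 CPM). Of the CCI-ind-like cells, 84.8% in Male-Sham and 92.4% in Female-Sham were Sprr1a+. In the Sprr1a- neurons alone, where this class had fewer than 10 cells in a sham library, cLTMR-like neurons were highest in Hspb1. The range of Hspb1 was then 14.6-fold, near that of Bag2 (13.8-fold). When presumed doublets were kept, a cluster led by Sstr2 with SGC genes among its leading genes was highest in Cryab (113 ± 9.82 CPM), Hspa1a (280.2 ± 26.0), Hspa1b (301 ± 46.1), and Dnajb1 (336 ± 40.9 CPM). Since clusters were built from these cells, the order of classes is a description without a test.

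**Figure D1:**
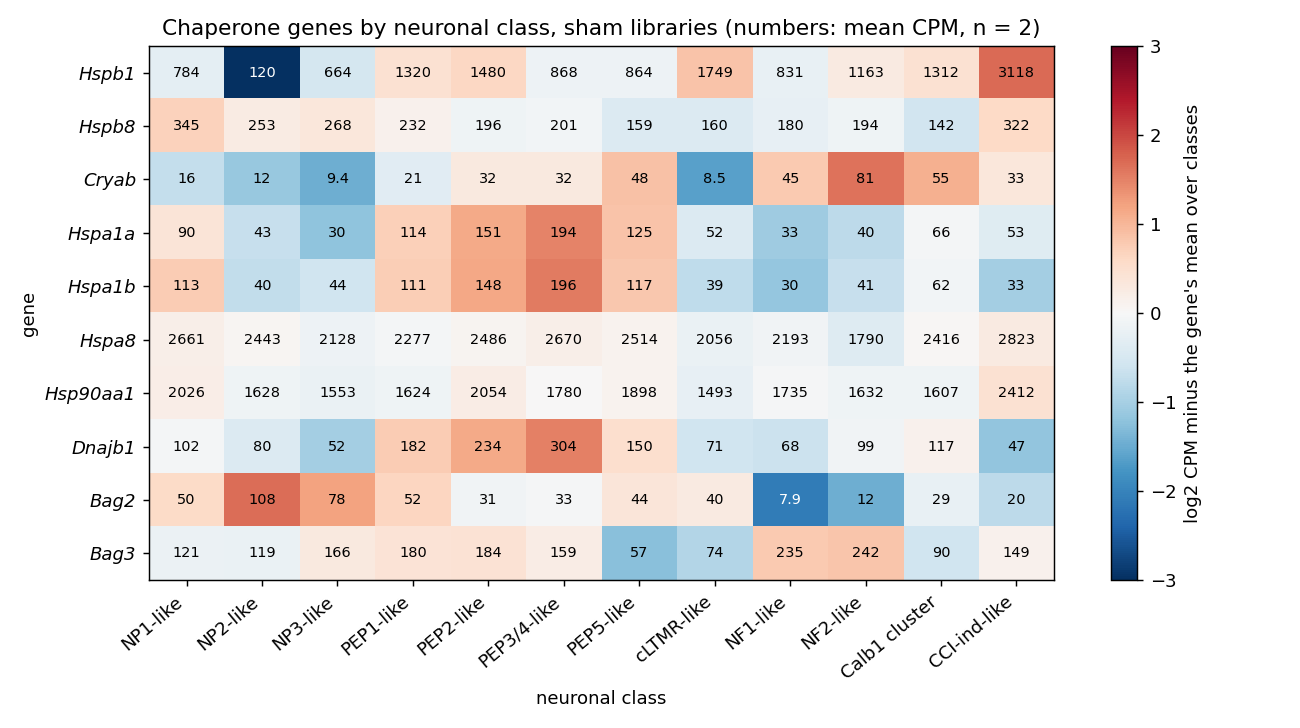
Heat map of the chaperone genes (vertical axis) over the neuronal classes (horizontal axis), in which each number is the mean CPM of the 2 sham libraries and the color is its log2 CPM minus the gene's mean over the classes. Hspb1 spreads 26.0-fold between CCI-ind-like and NP2-like neurons, Hspa1a, Hspa1b, and Dnajb1 peak in PEP3/4-like neurons, and Hspa8 and Hsp90aa1 are nearly level.

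Several members were abundant in the SGC-like cells of the sort. Cryab stood at 1274 and 1129.5 CPM after sham and 1197 and 997 CPM after CCI, against 24.0 and 26.1 CPM in the neurons of Male-Sham and Female-Sham. Hspa1a (1570.2 and 1750.2 CPM in the sham SGC-like cells), Hspa1b (1438 and 1709.5 CPM), and Dnajb1 (387 and 754 CPM) were also above their neuronal levels. Hspb1 (65.9 and 84.3 CPM) and Hspb8 (12.5 and 10.2 CPM) were below theirs. Glial RNA was counted in neurons too: the 8 SGC markers summed to 1025 to 1692 CPM in neurons against 108502 to 134775 CPM in SGC-like cells, and none of the 8 was at 0 in the neurons of any library. By class the sum ran from 119.8 to 232 CPM in NF1-like to 3807 to 4255 CPM in PEP5-like neurons of the sham libraries.

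Neurons without a single UMI of Fabp7, a defining SGC gene, were therefore measured apart. In these cells Cryab was at most 4.10 CPM in the NP, PEP, cLTMR-like, and Calb1 classes of the sham libraries. It remained at 82.0 and 67.5 CPM in NF2-like and 23.9 and 52.9 CPM in NF1-like neurons of Male-Sham and Female-Sham. The Cryab level of the Calb1 and PEP5-like classes above was thus not found in their Fabp7-free cells. Hspa1a in such cells was 47.4 and 63.0 CPM in PEP5-like and 20.1 and 9.33 CPM in the Calb1 cluster, below the level over all cells of those classes (125 ± 14.1 and 65.8 ± 9.25 CPM). PEP3/4-like neurons kept the highest level of Hspa1a (145 and 156 CPM), Hspa1b (136 and 156 CPM), and Dnajb1 (273 and 305 CPM).

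**Figure D2:**
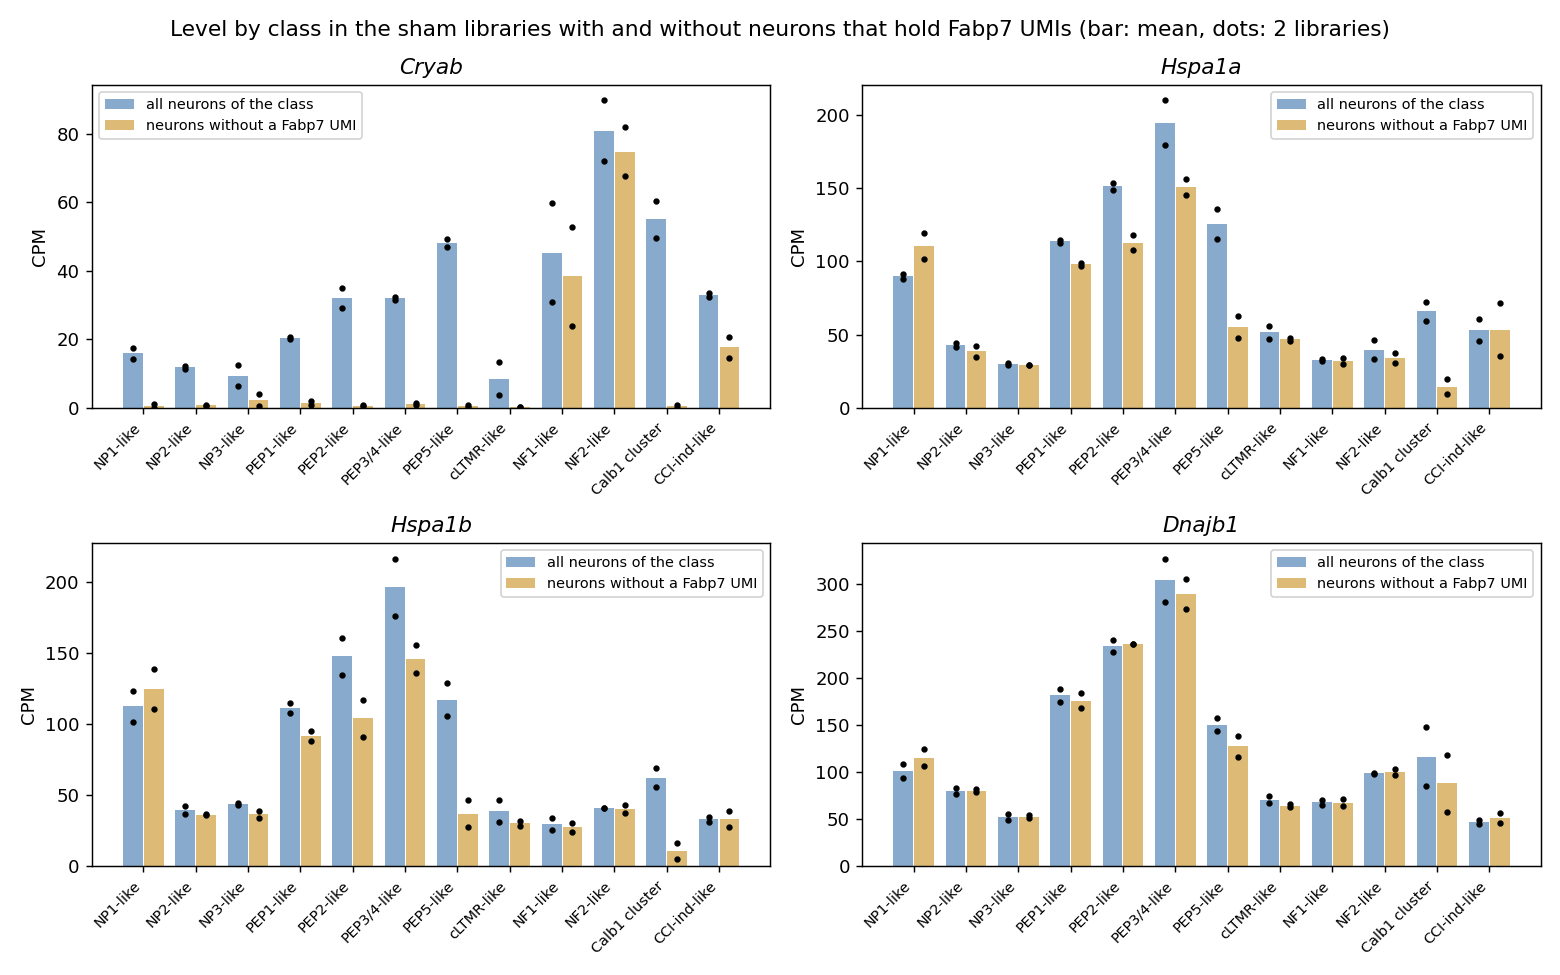
Levels (CPM) of Cryab, Hspa1a, Hspa1b, and Dnajb1 by class in the sham libraries, in all neurons and in neurons without a Fabp7 UMI, with bars for the mean and dots for the 2 libraries. Cryab drops to 4.10 CPM or less in the NP, PEP, cLTMR-like, and Calb1 classes and stays in NF1-like and NF2-like neurons, whereas PEP3/4-like neurons keep the top level of the other 3 genes.

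To ask how nerve injury changed the chaperones of the DRG as a whole, all neurons of the CCI libraries were first compared with those of the sham libraries. Hspb1 rose, whereas the inducible Hsp70 pair, its J-protein Dnajb1, and the cofactor Bag2 fell, and 5 of 10 members were called against a background of 27.8% of all genes tested (called means an adjusted p below 0.05 and an absolute log2 change above 0.5). Hspb1 was 995 and 1039 CPM after sham and 2173 and 1881 CPM after CCI (log2 change 1.05, SE 0.08, adjusted p = 9.55e-05, quasi-likelihood test of edgeR, adjusted by Benjamini-Hochberg). Both CCI libraries were above both sham libraries. Hspa1b was 82.6 and 103 CPM after sham and 46.9 and 51.5 CPM after CCI (log2 change -0.87, SE 0.12, adjusted p = 0.00303 by the same test), and Bag2 was 54.6 and 49.2 CPM after sham and 29.3 and 30.3 CPM after CCI (log2 change -0.74, SE 0.05, adjusted p = 7.16e-05). Neither gene overlapped between the surgeries.

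Hspa1a (87.6 and 102 CPM after sham and 58.0 and 64.9 CPM after CCI) and Dnajb1 (139 and 158 CPM after sham and 92.2 and 98.3 CPM after CCI) fell (log2 changes -0.57 and -0.59, SE 0.09 and 0.08; adjusted p = 0.00320 and 0.000859). Without Female-Sham, which had the highest level of both, their log2 changes were -0.46 and -0.49 and neither was called. The summed SGC markers of neurons were lower after CCI too (1372 and 1692 CPM after sham, 1025 and 1205 CPM after CCI). In Fabp7-free neurons all 3 genes were still called, with log2 changes of -0.63 (Hspa1a), -0.86 (Hspa1b), and -0.57 (Dnajb1). Hsp90aa1 was 1833 and 1575 CPM after sham and 2430.3 and 2183 CPM after CCI, a log2 change of 0.49 that stayed just under the limit of 0.5 (adjusted p = 0.00377). It was called without Male-Sham (0.60), without Female-CCI (0.57), and, with all 4 libraries, in cells with at most 5% mitochondrial UMIs (0.58). The log2 changes of Hspa8 (0.26), Bag3 (0.15), Hspb8 (0.08), and Cryab (0.00) were smaller. A difference over all neurons holds both changes within cells and the different shares of Sprr1a+ neurons, so neurons were next compared by Sprr1a state.

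Within the CCI libraries, Sprr1a+ neurons were set against Sprr1a- neurons of the same library, which gives 2 pairs with library as a block. Sprr1a+ neurons held more Hspb1, Hsp90aa1, and Cryab and less Hspa1a, Hspa1b, Dnajb1, and Bag2, so that 7 of 10 members were called, beside 45.5% of all genes. Hspb1 was 3025 and 2683 CPM in the Sprr1a+ and 1169 and 1065 CPM in the Sprr1a- neurons of Male-CCI and Female-CCI (log2 change 1.53, SE 0.02, adjusted p = 7.51e-11, edgeR with Benjamini-Hochberg adjustment). Bag2 was 15.3 and 15.4 CPM against 45.9 and 45.5 CPM, a log2 change of -1.40 (SE 0.04). Both genes differed in the same direction in both libraries. The inducible Hsp70 genes and their J-protein moved together: Hspa1a was 37.2 and 44.8 against 82.6 and 85.3 CPM (log2 change -0.87), Hspa1b 26.4 and 31.7 against 71.0 and 71.5 CPM (-1.13), and Dnajb1 56.7 and 59.4 against 134 and 138 CPM (-1.05). No Sprr1a+ value of these 3 genes reached a Sprr1a- value.

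Hsp90aa1 rose by 0.67 on the log2 scale, from 1983 and 1812 to 2809.7 and 2547 CPM, and Cryab by 0.70, from 19.9 and 19.3 to 28.2 and 28.3 CPM. In neurons without a Fabp7 UMI, Cryab stood at 10.4 and 9.81 against 3.97 and 4.45 CPM and its log2 change was 1.43, but the summed SGC markers of the same cells moved the same way (260.0 and 232 against 91.9 and 93.7 CPM), and their part in the change of Cryab was not tested. The called members moved the same way in these cells. When any Sprr1a UMI made a neuron Sprr1a+, Cryab (0.09) and Hsp90aa1 (0.49) lost their calls. With scaling to library totals instead of the trimmed mean of M-values (TMM), the median of all genes was -0.17 instead of close to 0, the split of called genes was 2579 up and 4991 down rather than 3385 up and 4001 down, and Hsp90aa1 fell just short of the limit. The 8 SGC markers summed to 893 to 1174 CPM in Sprr1a+ and 1182 to 1237 CPM in Sprr1a- neurons. The groups also differed in class: 794 of 1466 Sprr1a+ neurons of Male-CCI and 974 of 1789 of Female-CCI were CCI-ind-like, against 28 of 1350 and 40 of 1848 Sprr1a- neurons.

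**Figure D3:**
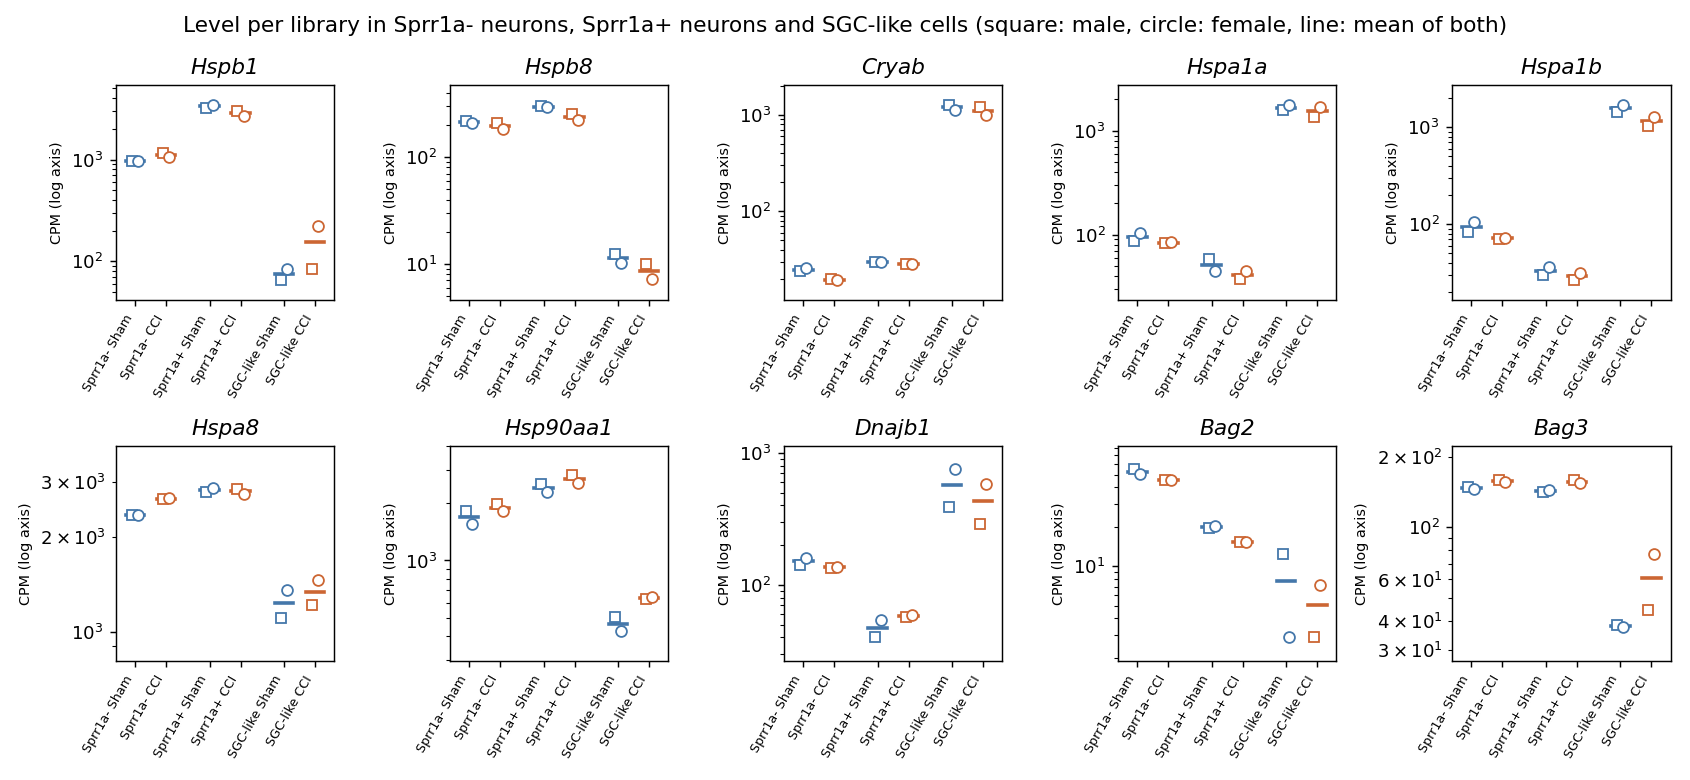
Level of each chaperone gene (CPM, log axis) in Sprr1a- neurons, Sprr1a+ neurons, and SGC-like cells, with a square for the male library, a circle for the female library, and a line for their mean. Sprr1a+ neurons of all 4 libraries hold more Hspb1 and less Hspa1b, Dnajb1, and Bag2 than the Sprr1a- neurons of any library, and SGC-like cells stand highest for Cryab, Hspa1a, and Hspa1b.

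The few Sprr1a+ neurons of the sham libraries (42 in Male-Sham and 144 in Female-Sham) allowed the same split without CCI. They held more Hspb1, Hspb8, and Hsp90aa1 and less Hspa1a, Hspa1b, Dnajb1, and Bag2 than Sprr1a- neurons of their own library, and 7 of 10 members were called, beside 37.3% of all genes. Hspb1 was 3228 and 3414 against 960.2 and 961 CPM in Male-Sham and Female-Sham (log2 change 1.90, SE 0.05). Dnajb1 was 40.1 and 53.7 against 141 and 161 CPM (-1.54), and Bag2 19.4 and 20.4 against 55.2 and 50.1 CPM (-1.25). Hspb8 was 303 and 292 against 219 and 208 CPM (0.60) and was not called in Fabp7-free cells (0.48), with library totals (0.48), or with doublets kept (0.45). The call of Hspa1a (-0.87) was also lost with doublets kept (-0.85). In Fabp7-free cells Hspa1a had a log2 change of -0.53, at 74.1 and 36.5 against 70.6 and 78.4 CPM. There the female pair kept the direction and the male pair did not. Cryab was called in Fabp7-free cells (17.6 and 10.9 against 5.96 and 6.55 CPM, log2 change 1.15), where the summed SGC markers moved the same way (215 and 209 against 93.0 and 98.0 CPM) and their part was not tested. Of these Sprr1a+ neurons, 28 and 85 were CCI-ind-like and 8 and 40 belonged to the Crh cluster. The fit found no spread between the pairs beyond counting error. Its p-values, and with them the 7 calls and the 37.3%, therefore rest on counting error, and the p-values are not given. With any Sprr1a UMI as the split 4 members were called.

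Next, Sprr1a- neurons were compared between CCI and sham, to ask whether chaperones differed in neurons below the Sprr1a limit. UMIs of injury markers were not absent from these neurons. Sprr1a was 0.470 and 1.24 CPM in them after sham and 23.1 and 27.0 CPM after CCI. Over the classes compared further below it ran from 19.0 CPM (NP3-like, Male-CCI) to 39.5 CPM (Calb1 cluster, Female-CCI) after CCI. In Sprr1a- SGC-like cells Sprr1a was 0.895 and 1.48 CPM after sham and 14.8 and 20.7 CPM after CCI. The source of these UMIs was not tested. Atf3 was 113 and 127 CPM after sham and 175 and 199.6 CPM after CCI. None of the 10 members was called by edgeR's quasi-likelihood test, beside 4.48% of all genes. At an unadjusted p below 0.05 there were 6 members, at the same adjusted p 3, and DESeq2 called 0. Hspb1 was 960.2 and 961 CPM after sham and 1169 and 1065 CPM after CCI (log2 change 0.19, SE 0.06, adjusted p = 0.0544 by edgeR). Cryab was 23.9 and 26.0 CPM after sham and 19.9 and 19.3 CPM after CCI (log2 change -0.37, SE 0.07, adjusted p = 0.0140 by edgeR), and its log2 change of -0.60 in Fabp7-free neurons was called. Hspa1b was 83.4 and 106 CPM after sham and 71.0 and 71.5 CPM after CCI (log2 change -0.43, SE 0.12, adjusted p = 0.0688 by edgeR), and without Male-Sham its change of -0.60 was called. Both genes were lower in each CCI library than in each sham library. The comparisons reported here share libraries, so they are not independent of one another.

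A contrast by Sprr1a state and surgery was then made inside the classes that held Sprr1a+ neurons, setting Sprr1a+ CCI neurons against Sprr1a- sham neurons of the same class. With at least 10 cells in each sum, NP1-like, NF1-like, and NF2-like neurons could be tested. In the paper the PEP5 cluster also kept Sprr1a+ neurons after CCI. The PEP5-like class held only 4 and 11 of them in Male-CCI and Female-CCI and was not tested. In the 3 tested classes 16 of 30 tests of a member in a class were called. Hspb1 rose and Hspa1b fell in all 3 classes, and Hsp90aa1 rose in each of them. The NP1-like class held a cluster led by Sst and Nppb, markers of pruriceptors, and a cluster led by Cd207 with CCI-ind markers as its second-best match. Of the Sprr1a+ CCI cells, 96 of 98 and 102 of 106 lay in the Cd207-led cluster, and of the Sprr1a- sham cells 82 of 83 and 63 of 71 in the Sst-led cluster, so Sprr1a state and cluster cannot be told apart here. In this class 6 of 10 members were called beside 41.2% of all genes. Hspb1 rose there from 266 and 487 CPM in Male-Sham and Female-Sham to 2919.7 and 2564 CPM in Male-CCI and Female-CCI (log2 change 2.92, SE 0.46, adjusted p = 0.0395, edgeR with Benjamini-Hochberg adjustment). The male and the female sham library differed here by more than in the other 2 classes, and the call was lost without Male-CCI (2.85), without Female-CCI (2.99), with sex as a replicate block (2.98), and without the filter on low counts (2.94). Hspa1b fell from 129.7 and 122 to 32.5 and 23.0 CPM (log2 change -2.11), Bag2 from 58.6 and 54.0 to 16.9 and 20.1 CPM (-1.56), and Dnajb1 from 99.6 and 121 to 38.4 and 39.3 CPM (-1.44). Hspa1a changed by -1.24 and Hsp90aa1 by 0.66.

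Of the NF1-like cells, 51 of 54 and 28 of 28 Sprr1a+ CCI cells lay in a cluster led by Pvalb, against 79 of 148 and 85 of 165 Sprr1a- sham cells, the rest being in a cluster led by Cadps2, whereas NF2-like neurons were 1 cluster. In the mechanoreceptors 4 of 10 members were called for NF1-like and 6 of 10 for NF2-like cells, beside 45.1% and 40.5% of all genes. Hspb1 rose from 1224 and 1102 to 4369 and 3513 CPM in NF2-like (2.01) and from 762 and 899.6 to 3082 and 2116 CPM in NF1-like neurons (1.97). Cryab went the other way in these cells: it fell from 89.7 and 71.9 to 18.2 and 30.7 CPM in NF2-like neurons (log2 change -1.53, SE 0.20, adjusted p = 0.000290, edgeR). In NF1-like neurons Cryab was 30.9 and 59.7 CPM in sham and 7.02 and 10.6 CPM in Sprr1a+ CCI neurons, a log2 change of -2.15 that was not called (adjusted p = 0.0638, edgeR) but was by DESeq2 (-2.11). The summed SGC markers of NF2-like neurons were 312 to 371 CPM in the Sprr1a- sham and 263 to 694 CPM in the Sprr1a+ CCI neurons, and in Fabp7-free NF2-like cells Cryab was 82.0 and 67.5 against 14.2 and 30.2 CPM. Hsp90aa1 rose by 0.82 and 0.86 in NF1-like and NF2-like neurons, and Hspa1b fell (log2 changes -0.96 and -1.02). DESeq2 lost the call of Bag2 in NF1-like (-0.83) and that of Hspa1a (-0.59) in NF2-like cells. The first was also lost without any of the 4 libraries (-0.97 to -0.75), the second without Female-Sham (-0.34) or Female-CCI (-0.46), and that of Hspa1b in NF1-like neurons without Male-CCI (-0.50). The call of Hspa8, constitutive Hsc70, in NF2-like neurons (0.65) was lost without Male-Sham (0.63) or Male-CCI (0.47) and with library totals (0.41), a scaling that moved the median of all genes by -0.33 (NF1-like) and -0.25 (NF2-like).

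**Figure D4:**
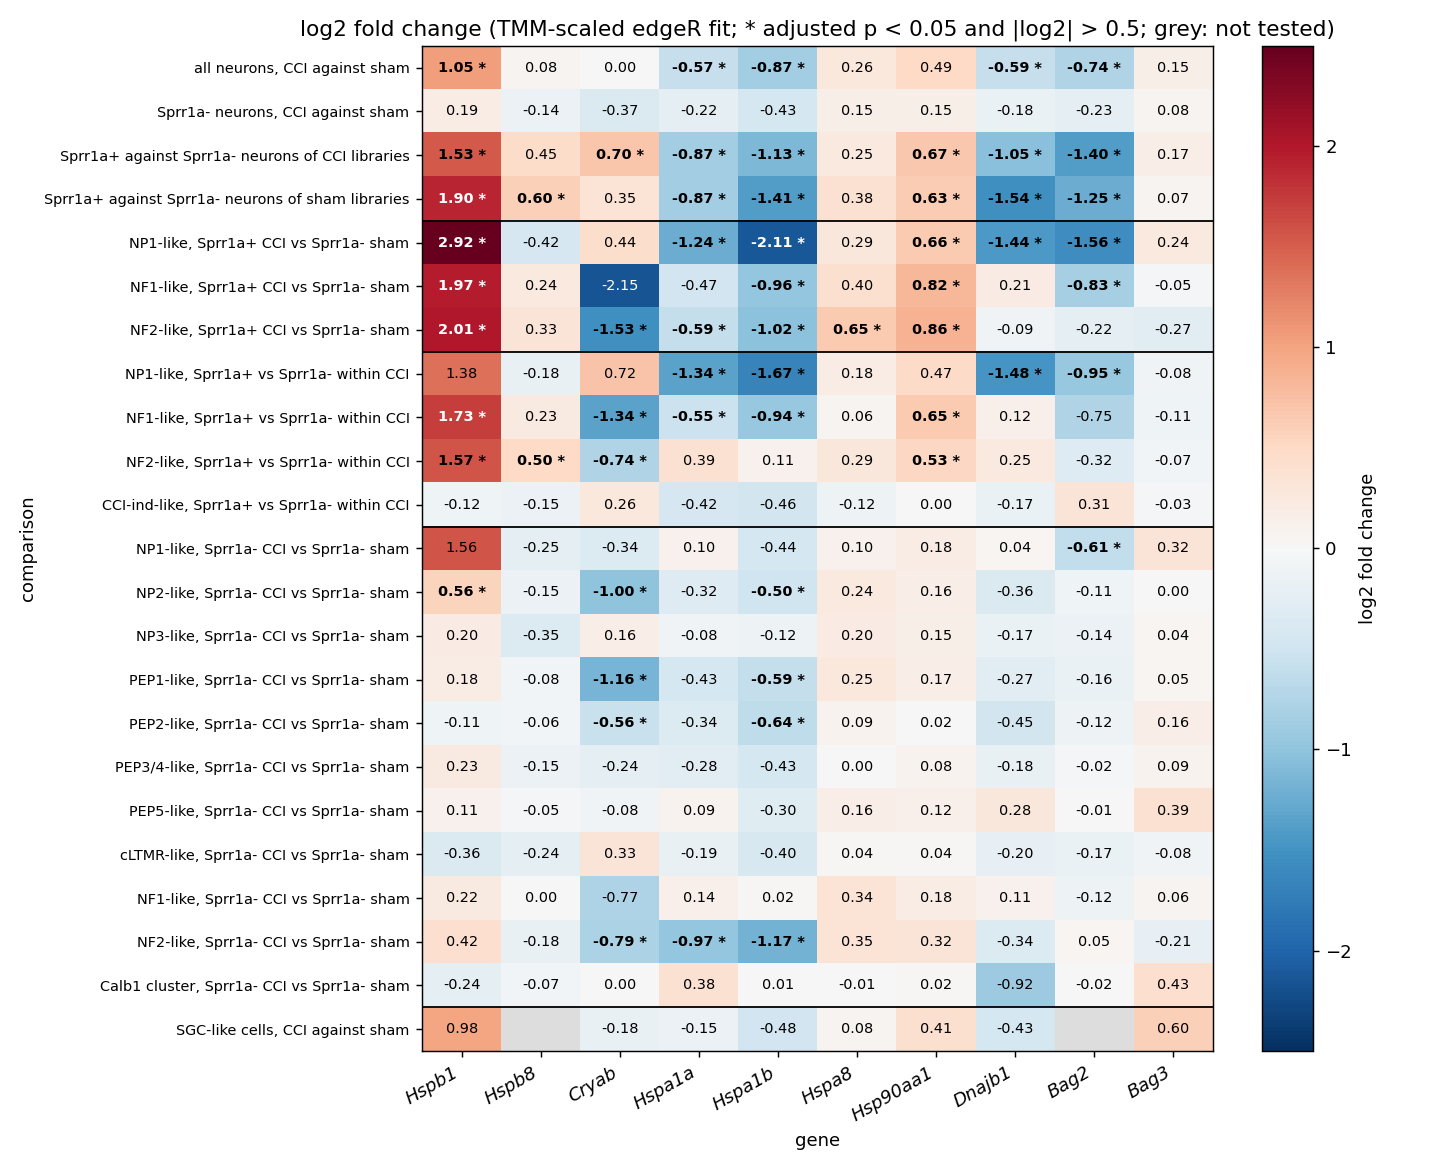
Heat map of the log2 change of each chaperone gene (horizontal axis) in each tested comparison (vertical axis), with called changes in bold with an asterisk and untested genes in grey. Hspb1 rises with Sprr1a in NF1-like and NF2-like neurons, Hspa1b falls in the Sprr1a+ CCI neurons of all 3 tested classes, and no gene is called in Sprr1a- neurons over all classes or in SGC-like cells.

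Within the CCI libraries the Sprr1a+ and Sprr1a- neurons of a class shared animals and library. They shared the cluster in NF2-like neurons, but of NP1-like neurons only 4 of 31 and 11 of 35 Sprr1a- cells lay in the Cd207-led cluster that held nearly all Sprr1a+ cells, and of NF1-like neurons 35 of 64 and 37 of 55 Sprr1a- cells in the Pvalb-led cluster. Here 13 of 40 tests were called, 5 in NF1-like (beside 42.7% of all genes), 4 in NF2-like (32%), and 4 in NP1-like neurons (22.8%). Hspb1 was 4369 and 3513 CPM in the Sprr1a+ and 1432 and 1583 CPM in the Sprr1a- NF2-like neurons of Male-CCI and Female-CCI (1.57). In NF1-like neurons it was 3082 and 2116 against 996 and 886 CPM (1.73). In NP1-like neurons it was 2919.7 and 2564 against 913 and 1321 CPM, a change of 1.38 that was not called (adjusted p = 0.0720, edgeR) but was by DESeq2 (1.41). Whether the change of Hspb1 differed between classes was not tested.

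Cryab fell with Sprr1a in NF1-like (7.02 and 10.6 against 24.4 and 27.1 CPM, -1.34) and NF2-like neurons (18.2 and 30.7 against 48.1 and 42.7 CPM, -0.74 and without Female-CCI -1.12), opposite to its direction over all CCI neurons, and DESeq2 called neither. The summed SGC markers were 242 to 346 CPM in Sprr1a+ and 182 to 224 CPM in Sprr1a- NF1-like neurons, and their part in the change of Cryab was not tested. In Fabp7-free NF1-like cells Cryab was 8.58 and 5.00 against 3.30 and 28.8 CPM, where the female pair kept the direction and the male pair did not. Hspa1a, Hspa1b, Dnajb1, and Bag2 fell in NP1-like neurons, with log2 changes of -1.34, -1.67, -1.48, and -0.95, and Hspa1a (-0.55) and Hspa1b (-0.94) fell in NF1-like neurons. In the CCI-ind-like class 0 of 10 members were called by edgeR, beside 4.53% of all genes, with 1 at an unadjusted p below 0.05 and 0 by DESeq2. Its Hspb1 was 2838 and 2619 CPM in Sprr1a+ and 3542 and 2663 CPM in Sprr1a- neurons. Atf3 was 1248 and 1343 CPM in the Sprr1a+ and 1704 and 1538 CPM in the Sprr1a- neurons of this class. With library totals the calls of Hsp90aa1 in NF1-like (0.65 to 0.37) and NF2-like neurons (0.53 to 0.33) and of Hspb8 in NF2-like neurons (0.50 to 0.31) were lost. This scaling moved the median of all genes by -0.29 (NF1-like) and -0.19 (NF2-like). DESeq2 called 8 of the tests, losing Hspa1a and Hspa1b in NF1-like, Hspb8 in NF2-like, and Bag2 in NP1-like neurons besides Cryab. For NF1-like neurons the fit found no spread between the pairs beyond counting error, so the 5 calls and the 42.7% there rest on counting error.

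Sprr1a- neurons were also compared between CCI and sham class by class. Of 110 tests 11 were called, among them lower Cryab and lower Hspa1b in 4 classes each. In NP2-like neurons 3 members were called (4.51% of all genes), in NF2-like 3 (1.91%), in PEP1-like 2 (5.31%), in PEP2-like 2 (4.24%), and in NP1-like 1 (3.97%). Hspb1 rose in NP2-like neurons, its lowest class, from 116 and 124 CPM in the sham to 190.0 and 169.7 CPM in the CCI libraries (log2 change 0.56, SE 0.07, adjusted p = 5.08e-05, edgeR). In NP1-like neurons Hspb1 was 266 and 487 CPM in the sham and 913 and 1321 CPM in the CCI libraries without overlap, but this change was not called (log2 change 1.56, SE 0.52, adjusted p = 0.341, edgeR), whereas DESeq2 called it (1.54). The Cd207-led cluster held 1 of 83 and 8 of 71 of these cells after sham and 4 of 31 and 11 of 35 after CCI. Hspa1b fell in PEP1-like neurons from 108 and 115 to 71.3 and 74.2 CPM (log2 change -0.59, SE 0.06, adjusted p = 0.000275, edgeR), and also in PEP2-like (-0.64), NP2-like (-0.50), and NF2-like neurons (-1.17). In Fabp7-free PEP1-like cells Hspa1b was 88.5 and 95.1 CPM in the sham and 65.7 and 64.3 CPM in the CCI libraries. In none of these called cases did the CCI and sham libraries overlap. The call of Hspb1 in NP2-like neurons was lost without Male-CCI (0.49), that of Hspa1b in NP2-like neurons without Female-Sham (-0.39) or Female-CCI (-0.35) and with sex as a replicate block (-0.50), and that of Hspa1b in PEP2-like neurons without the same libraries (-0.48 and -0.50).

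Cryab fell in NF2-like neurons from 89.7 and 71.9 to 48.1 and 42.7 CPM (-0.79), and Fabp7-free cells of that class held 82.0 and 67.5 against 49.1 and 42.8 CPM. It was also called lower in PEP1-like (-1.16), NP2-like (-1), and PEP2-like neurons (-0.56), classes whose Fabp7-free cells held 0.146 to 1.97 CPM in the 4 libraries. In PEP1-like neurons the summed SGC markers were at least 1472 CPM in each sham library and 486 to 646 CPM in the CCI libraries. Hspa1a fell in NF2-like neurons (33.1 and 46.4 to 16.0 and 22.6 CPM, -0.97) and Bag2 in NP1-like neurons (58.6 and 54.0 to 42.3 and 32.5 CPM, -0.61). DESeq2 lost the call of Cryab in PEP2-like neurons (-0.57) and gave no adjusted p for Hspa1a and Hspa1b in NF2-like and for Bag2 in NP1-like neurons. The call of Hspa1a was lost without Female-Sham (-0.71), that of Bag2 without Male-Sham (-0.57), Female-Sham (-0.66), or Female-CCI (-0.47), and that of Cryab in PEP2-like neurons without Male-Sham (-0.45) or Female-CCI (-0.43). No member was called by edgeR in NF1-like (1.06% of all genes called), NP3-like (2.67%), PEP3/4-like (3.44%), PEP5-like (3.27%), or cLTMR-like neurons (1.71%) or in the Calb1 cluster (0.873%). At an unadjusted p below 0.05 these classes had 3, 3, 5, 3, 3, and 3 members in this order, and DESeq2 called 0 in each.

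In the SGC-like cells 0 of 8 members tested were called between CCI and sham by edgeR, beside 3.2% of all genes, and Hspb8 and Bag2 did not pass the filter on low counts. At an unadjusted p below 0.05 there were 3, and DESeq2 called 0 but gave no adjusted p for Hspb1 and Bag3. Cryab was 1274 and 1129.5 CPM after sham and 1197 and 997 CPM after CCI (-0.18). Hspa1b was 1438 and 1709.5 CPM after sham and 1037 and 1283 CPM after CCI (log2 change -0.48, SE 0.12, adjusted p = 0.0280 by edgeR), and it was called without Male-Sham (-0.64) and without Female-CCI (-0.69). Hspb1 was 65.9 and 84.3 CPM after sham and 84.6 and 223 CPM after CCI (0.98), where Female-CCI stood apart, and it was called without Male-CCI (1.59) and with sex as a replicate block (0.87). Dnajb1 was higher in the female than in the male library of each surgery (387 and 754 CPM after sham and 289.6 and 581 CPM after CCI).

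Shares of cells with a UMI of a member were counted as well. Each cell was thinned to 2000 UMIs so that depth did not set the share. Hspb1 had a UMI in 94.7 to 95.8% of Sprr1a+ and 72.7 to 73.5% of Sprr1a- neurons of the CCI libraries, against 13.6 to 20.2% of SGC-like cells. Unthinned, the shares of Hspb1 were 99.7 to 99.8%, 97.5 to 98%, and 24.6 to 43.1%. Dnajb1 was counted in 10.4 to 11.1% of Sprr1a+ and 23.6 to 24.2% of Sprr1a- neurons, and Bag2 in 2.63 to 3.48% and 8.12 to 9.04%. Cryab had a UMI in 5.14 to 6.00% of Sprr1a+ and 3.85 to 4.49% of Sprr1a- neurons against 84.4 to 86.4% of SGC-like cells, and Hspa1a in 7.10 to 7.91% and 14.2 to 15.6% against 66.9 to 72.5%. The median depth was 45680 to 60289 UMIs in Sprr1a+ neurons, 40010 to 51202 in Sprr1a- neurons, and 4416 to 5160 in SGC-like cells. Cells are not replicates, so these shares carry no test.

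**Figure D5:**
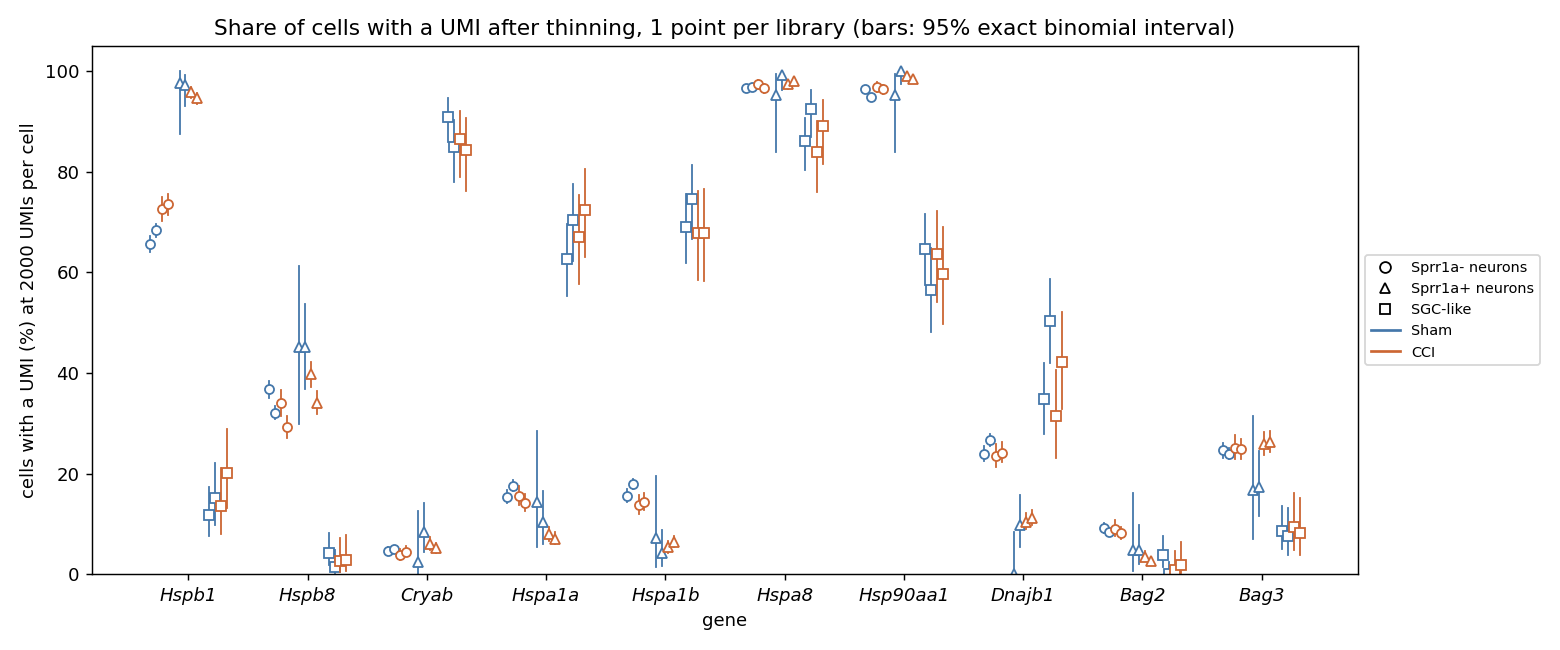
Share of cells (percent) with at least 1 UMI of each chaperone gene after thinning to 2000 UMIs, in Sprr1a+ neurons, Sprr1a- neurons, and SGC-like cells of each library, with exact binomial 95% intervals that cover counting error only. Hspb1 reaches 94.7 to 97.6% of Sprr1a+ neurons, and Cryab 84.4 to 90.9% of SGC-like cells.

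Across single Sprr1a- neurons of a library the inducible Hsp70 genes varied together. Spearman's rho of Hspa1a with Hspa1b was 0.62 to 0.65 over the 4 libraries, of Hspa1b with Dnajb1 0.35 to 0.39, of Hspa1a with Dnajb1 0.34 to 0.37, and of Hspa8 with Hsp90aa1 0.31 to 0.45. These cells share a library and their spread in depth and glial RNA, and the first pair shares sequence. They were also pooled over classes that differ in these genes, and rho within a class was not measured. Over 55 sums of a class and library, not split by Sprr1a state, the genes most like Hspb1 among 8367 compared were Plxna4 (0.922), Hist1h4i (0.878), Lgals8 (0.863), Gpr153 (0.848), and Gpc1 (0.845) (Pearson's r of log2 CPM). The genes most like Hspa1a were Hspa1b (0.935), Srebf1 (0.876), Prrc2a (0.872), Nup98 (0.863), and Dnajb1 (0.863). The sums of a library share that library, so the values of r are descriptions.

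The wider chaperone network was read from 10 lists with 99 genes over all neurons of CCI against sham. These lists also hold the called members Hspb1, Hspa1a, Hspa1b, Dnajb1, and Bag2. There 27.8% of all genes were called and 12 of the 96 chaperone genes tested, a smaller share that counts these 5 members again. The median log2 change of all genes was -0.006. Of the small heat shock proteins 1 of 7 members rose and 1 fell, the latter being Hspb3, a muscle-enriched member at under 1 CPM in every library. Of the cytosolic Hsp70 and Hsp110 genes 0 of 9 members rose and 2 fell, both of the latter Hspa1a and Hspa1b. Among Hsp90 and its co-chaperones 0 of 12 members rose and 1 fell. That gene was Stip1, the adaptor that hands clients from Hsp70 to Hsp90 (175 and 164 CPM in the sham and 122 and 105 CPM in the CCI libraries, log2 change -0.52, SE 0.08, adjusted p = 0.00191, edgeR). Of the J-proteins 0 of 12 members rose and 2 fell, Dnajb1 and Dnajc6, the auxilin that uncoats clathrin vesicles (65.0 and 64.1 CPM in the sham and 43.1 and 43.0 CPM in the CCI libraries, log2 change -0.53, SE 0.04, adjusted p = 5.65e-05, edgeR). Of the BAG family and related Hsp70 cofactors 0 of 9 members rose and 1 fell, namely Bag2.

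Of the mitochondrial chaperones 2 of 7 members rose and 0 fell, close to the 27.8% of all genes called, of which 15.2% of all genes tested rose. Their median log2 change was 0.33, and the list as a whole was not tested. Hspa9 (mortalin), the Hsp70 of the mitochondrial matrix, was 95.7 and 97.0 CPM in the sham and 139 and 133 CPM in the CCI libraries, log2 change 0.55, SE 0.05, adjusted p = 0.000197, and Lonp1, the matrix protease, was 23.8 and 23.4 CPM in the sham and 40.2 and 37.6 CPM in the CCI libraries, log2 change 0.78, SE 0.05, adjusted p = 4.89e-05 (edgeR). Of the chaperonin and prefoldin subunits 1 of 15 members rose and 0 fell, the former being Cct8 (0.53), a subunit of the ring that folds actin and tubulin. Of the endoplasmic reticulum chaperones 0 of 13 members rose and 0 fell, and of the autophagy partners of Bag3 and Hspb8 0 of 7 members rose and 0 fell, with 6 and 3 at an unadjusted p below 0.05 by edgeR and 0 and 1 called by DESeq2. Among the heat shock regulators 0 of 5 members rose and 1 fell, which was Hsf4 (-0.66), a heat shock factor best known from the lens. Between Sprr1a+ and Sprr1a- neurons of the CCI libraries, 4 of 7 mitochondrial chaperones and 3 of 15 chaperonin or prefoldin subunits rose and none of either list fell, beside 20.8% of all genes that rose, a share close to that of the second list, with median log2 changes of 0.57 and 0.19 where that of all genes was close to 0. Between CCI and sham Sprr1a- neurons no gene of the 10 chaperone lists was called by edgeR, with 36 of 96 at an unadjusted p below 0.05 and 0 called by DESeq2.

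Immediate early genes, which respond to cell dissociation as well as to activity, were measured beside them. Over all neurons 1 of 10 members rose and 2 fell, close to the 27.8% of all genes called: Fos was 137 and 173 CPM in the sham and 98.7 and 95.6 CPM in the CCI libraries, log2 change -0.62, SE 0.12, adjusted p = 0.00587 (edgeR), Fosb fell as well (-0.63), and Dusp1 rose (0.56). Their sum was 627 to 762 CPM in Sprr1a- and 409.7 to 557 CPM in Sprr1a+ neurons over the libraries, lower in the latter as were Hspa1a, Hspa1b, and Dnajb1, and the part of dissociation in these differences was not tested.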

How the data were processed

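Single-cell suspensions of sorted GFP+ cells were made into 3′ scRNA-seq libraries (4 libraries, 2 per surgery). Cell Ranger was used by the authors to align reads (mm10) and to count UMIs, for which the submitters' notes give version 2.1.1 and the matrix headers another; the deposited values are raw UMI counts per gene and called cell. The members and the gene lists were chosen with earlier results of these data known.

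Cells with at least 1500 genes and at most 10% mitochondrial UMIs were kept. Scrublet (scanpy 1.11.5, Python 3.11.15) at its automatic threshold marked 0 to 272 cells per library of 23691 cells in all and was taken not to have worked, so per library the top-scoring cells were dropped, as many as the study's supplement lists. Seurat 5.3.0 (R 4.3.3) clustered the integrated libraries (3000 variable genes, 20 components, resolution 0.8, 32 clusters) with the 10 members left out, 6 of which were variable. Clusters were named from markers; part of the naming rule was set after the clusters were seen. In 4 of 30 neuronal clusters (1687 cells) over 90% of cells held a Fabp7 UMI.

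Counts were summed per library and class (at least 10 cells) and tested over all genes with edgeR 4.0.16 (quasi-likelihood, robust, TMM, filterByExpr), with Benjamini-Hochberg adjustment and library as a block within libraries. DESeq2 1.42.0 was an alternative, as were other filters, scalings, blocks, cell limits, Sprr1a limits, resolutions, and leaving out each library. Levels across classes in Sprr1a- neurons and class comparisons in Fabp7-free neurons were added after seeing the data. On simulated counts with 200 genes changed 2-fold, edgeR recovered 81.5% for all neurons of CCI against sham (17233 genes) and called 9 unchanged genes. The changed genes were a far smaller share than the 27.8% called in the data, so recovery in the data may differ. Mean ± SD is over the 2 libraries of a surgery. Named genes were all members, the called genes of the lists over all neurons, and the 5 genes most like Hspb1 and Hspa1a over sums of classes (at least 10 CPM). Depth was 195684124 to 237069156 UMIs per library.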

Additional observations from a re-analysis of the deposited data

Results flagged for a closer look

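Some members differed in opposite directions in different classes, in both the male and the female libraries, and none of these differences between classes was tested. Hspb1 in Sprr1a- neurons of CCI against sham had a log2 change of 0.56 in NP2-like neurons, -0.24 in the Calb1 cluster, and -0.36 in cLTMR-like neurons, and only the first was called.

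Between Sprr1a+ and Sprr1a- neurons of the CCI libraries, Hspb8 had a log2 change of -0.15 in the CCI-ind-like class, where it was not called, and 0.50 in NF2-like neurons, where it was. In the same comparison Bag2 was at 0.31 in the CCI-ind-like class, not called, and at -0.95 in NP1-like neurons.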

How the results depend on the processing

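Of the counts of called members and highest classes, 69 of 81 alternative values stayed within 1.5 times the reported count, and of the values of single members 879 kept their direction and side of the limits, 55 lost a call, 10 gained one, 11 moved without a test, and 9 reversed. The cause was not tested. Over all neurons, leaving out each library gave 3 to 6 called members. In Sprr1a- neurons of CCI against sham it gave 0 to 1, and leaving out neurons with a Fabp7 UMI gave 1. In SGC-like cells leaving out each library gave 0 to 1 and sex as a replicate block 1. In Sprr1a- neurons by class leaving out each library gave 7 to 14 calls. Between Sprr1a+ and Sprr1a- neurons, any Sprr1a UMI as the limit gave 4 called members in the sham libraries. By class in the CCI libraries DESeq2 gave 8 calls instead of 13. Resolution 0.4 gave 20, but with 19 clusters instead of 32 its classes did not hold the same cells. That count is therefore not a repeat of the same tests. With doublets kept, 5 of the 10 members had the same highest class.

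The log2 changes that reversed were called in neither setting. Hspb8 over all neurons was -0.0326 without Male-CCI. In Sprr1a- neurons with any Sprr1a UMI as the limit, Hspa1a was 0.13 and Bag3 -0.0054. Bag3 in the sham libraries was -0.0395 with library totals. In SGC-like cells Hspa1a (0.0296) and Dnajb1 (0.0185) reversed without Male-CCI, Hspa8 without Male-Sham (-0.11) and without Female-CCI (-0.10), and Dnajb1 without Female-Sham (0.14).

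Counts of called genes over all neurons or SGC-like cells that moved by more than 1.5 times were 4735 instead of 7386 between Sprr1a+ and Sprr1a- neurons of the CCI libraries and 2031 instead of 5902 of the sham libraries with any Sprr1a UMI as the limit. In Sprr1a- neurons of CCI against sham they were 426 without Male-Sham, 483 without Female-Sham, and 328 without Female-CCI instead of 735. In SGC-like cells DESeq2 called 53 instead of 233 genes, and library totals gave 137 up and 64 down rather than 128 up and 105 down. In the sham libraries library totals moved the median of all genes from -0.11 to -0.23.

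By class, the counts of called genes behind the printed shares moved by more than 1.5 times in these cases. Within the CCI libraries they were NF1-like 4725 (2007 with DESeq2), NF2-like 3545 (1524 with DESeq2), NP1-like 2479 (938 with DESeq2), and CCI-ind-like 626 (288 with DESeq2). In Sprr1a- neurons of CCI against sham they were NP1-like 387 (130 with DESeq2, 698 with no filter, 737 with the sex block, 161 without Male-Sham, 782 without Male-CCI), NP2-like 564 (293 with DESeq2), NP3-like 313 (105 with DESeq2, 208 without Male-Sham, 203 without Female-Sham, 558 without Male-CCI), PEP1-like 703 (412 with DESeq2, 435 without Male-Sham, 429 without Female-Sham), PEP2-like 520 (179 with DESeq2, 281 without Male-Sham, 283 without Female-Sham), PEP3/4-like 462 (263 with DESeq2, 266 without Female-CCI), PEP5-like 400 (189 with DESeq2, 627 with the sex block, 218 without Female-CCI), cLTMR-like 213 (65 with DESeq2, 33 without Female-CCI), NF1-like 127 (52 with DESeq2, 304 with no filter, 360 with the sex block, 336 without Male-Sham, 70 without Male-CCI, 46 without Female-CCI), NF2-like 215 (98 with DESeq2, 523 with no filter, 557 with the sex block, 768 without Male-CCI), and Calb1 cluster 84 (31 with DESeq2, 180 with no filter, 190 with the sex block, 175 without Male-Sham).

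The male and the female library share only a sex between surgeries, so pairing by sex was an alternative: their deviations correlated between sham and CCI with r = 0.335 across 12300 genes, and sex as a replicate block left 5 called members over all neurons. It also ended the call of Bag2 between Sprr1a+ CCI and Sprr1a- sham NF1-like neurons (-0.86). Within the CCI libraries, dropping the library block ended that of Hspa1a in NP1-like neurons (-1.35). Over all neurons, dropping it left 7 called members in the CCI and 7 in the sham libraries. With 2 libraries a surgery, of pooled animals, the spread between animals was not measured.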
